A study of Mus musculus with 8 samples.

Results

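The lysosomal hydrolases and membrane proteins described here are 35 genes chosen by name for their function, all of them present in the count table and all of them among the 16069 genes tested (35 of 22869 gene symbols in the table). For each gene the transcript row with the highest mean count over the 8 libraries was used. RNA was sequenced from the cortex of C57BL/6 mice carrying the APP/PS1 genotype, a transgenic combination of amyloid precursor protein and presenilin 1 that forms amyloid plaques. Bexarotene, which activates the retinoid X receptors, had been given to the animals behind 4 libraries, and those behind the other 4 had received 0.2 mg/kg glycerol (vehicle). All 8 libraries share the APP/PS1 genotype, so no animal without the transgenes enters the comparison. The promoter that drives the transgenes, the dose of bexarotene, the length of treatment, the age and the number of animals behind a library are not known here. The p-values therefore reflect no more than the scatter among 8 libraries, of which an unknown part may be technical. The sex-linked transcripts given below differ between vehicle libraries, so these do not all come from the same animals.

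Lysosomes are acidic organelles in which enzymes break down lipids, sugar chains and proteins taken up from outside the cell or delivered by autophagy. Soluble hydrolases reach them with mannose-6-phosphate tags, membrane proteins such as Lamp1 line and protect their limiting membrane, and the transcription factor Tfeb activates many of their genes through an E-box called the CLEAR element. In brain, neurons and microglia both depend on them, loss of single members causes lysosomal storage diseases, and dystrophic neurites around amyloid plaques are filled with lysosome-like vesicles.

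The promoters of some members are shown as examples that differ in whether they hold the E-box letters CACGTG, which were searched for on both strands. Genes with an E-box are over-represented among those shown. Psap, Gm2a, Hexa, Ids and Grn, whose promoters held none, are not shown. The longer form TCACGTGA, the core of the CLEAR element, contains the E-box, so the searches overlap. Of the members, 31 had an entry in the RefSeq promoter table (build GRCm38.p6, 250 bases before to 50 after a gene's start, 300 in all), with 35 promoters between them. Npc1, Laptm4b, Asah1 and Galns had none. CACGTG occurred in 8 of these 35 promoters (22.9%), against 7.15% of all 32851 promoters of the same length. TCACGTGA occurred in 3 of 35 (8.57%), against 0.974% of all promoters. In the following windows, printed 5′ to 3′ on the strand of the gene, capitals mark CACGTG or TCACGTGA.
Lamp1 (chr8:13158911-13159210, plus strand): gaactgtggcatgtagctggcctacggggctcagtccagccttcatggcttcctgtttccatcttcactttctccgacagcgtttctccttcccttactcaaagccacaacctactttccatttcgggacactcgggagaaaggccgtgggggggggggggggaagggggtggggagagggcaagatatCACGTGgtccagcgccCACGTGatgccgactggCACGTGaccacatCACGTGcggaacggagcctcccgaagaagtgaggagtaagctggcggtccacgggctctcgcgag
Mcoln1 (chr8:3500269-3500568, plus strand): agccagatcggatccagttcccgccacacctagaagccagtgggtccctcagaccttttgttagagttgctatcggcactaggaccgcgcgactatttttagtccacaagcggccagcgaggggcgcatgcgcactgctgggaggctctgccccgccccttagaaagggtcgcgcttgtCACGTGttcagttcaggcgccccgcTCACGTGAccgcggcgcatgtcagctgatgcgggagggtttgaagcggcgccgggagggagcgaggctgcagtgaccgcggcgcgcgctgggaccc
Gla (chrX:134600956-134601255, minus strand): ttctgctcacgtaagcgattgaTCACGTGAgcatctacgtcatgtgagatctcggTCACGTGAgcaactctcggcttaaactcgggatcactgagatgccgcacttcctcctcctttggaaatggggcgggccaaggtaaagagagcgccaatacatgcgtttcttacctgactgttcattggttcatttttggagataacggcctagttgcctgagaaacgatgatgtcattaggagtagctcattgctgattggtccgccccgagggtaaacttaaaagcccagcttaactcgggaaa
Naglu (chr11:101069844-101070143, plus strand): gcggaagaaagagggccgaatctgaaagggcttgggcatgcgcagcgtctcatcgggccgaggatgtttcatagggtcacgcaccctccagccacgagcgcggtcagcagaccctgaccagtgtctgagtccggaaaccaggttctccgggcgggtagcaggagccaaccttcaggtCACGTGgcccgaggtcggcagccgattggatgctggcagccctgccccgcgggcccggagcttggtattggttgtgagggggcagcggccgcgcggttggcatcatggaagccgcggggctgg
Npc2 (chr12:84773063-84773362, minus strand): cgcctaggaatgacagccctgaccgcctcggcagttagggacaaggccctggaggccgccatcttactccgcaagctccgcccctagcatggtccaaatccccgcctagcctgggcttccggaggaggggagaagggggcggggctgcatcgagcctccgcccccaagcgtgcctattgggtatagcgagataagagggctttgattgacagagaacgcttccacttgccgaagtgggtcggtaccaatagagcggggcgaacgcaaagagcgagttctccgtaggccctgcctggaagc
Fuca1 (chr4:135920476-135920775, plus strand): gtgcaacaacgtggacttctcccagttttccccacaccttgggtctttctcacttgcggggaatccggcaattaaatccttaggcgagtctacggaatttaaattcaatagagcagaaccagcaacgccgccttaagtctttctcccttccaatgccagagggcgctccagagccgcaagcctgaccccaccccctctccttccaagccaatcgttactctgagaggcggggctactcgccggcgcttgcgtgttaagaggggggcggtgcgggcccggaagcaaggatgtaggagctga
Lamp1 held 4 E-boxes, which began at positions -61, -45, -28 and -15 relative to the start. Mcoln1 held 2, at -71 and -45, and the second was within TCACGTGA. Gla held 2, at -227 and -194, both within TCACGTGA. Naglu held 1, at -73. The windows of Npc2 and Fuca1, whose levels did not overlap between the groups, held none. The other members with an E-box in the window were Cln3, Arsa, Glb1 and Sgsh. A match of letters is a description of the sequence and not a measured binding site.

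Library totals, summed over every row, ranged from 42413825 to 76542067 per library, and 35 of 35 members passed the low-count filter. Xist, the RNA of the inactive X chromosome, was at 248 and 307 CPM in vehicle replicates 1 and 3 and at most 0.861 CPM in vehicle replicates 2 and 4, while the Y-linked genes showed the reverse (at most 0.282 CPM and at least 134 CPM). All 4 bexarotene libraries held both, with Xist from 84.7 to 218 CPM and the Y-linked sum from 9.81 to 88.5 CPM. Markers of cortical excitatory neurons were detected in 5 of 5 cases and summed to 1071 to 1833 CPM, and those of striatal neurons to 1235 and 904 CPM in bexarotene replicates 1 and 3, 646 CPM in vehicle replicate 1 and 212 to 317 CPM in the others. Choroid plexus markers summed to 1452 CPM in bexarotene replicate 2, 74.9 to 226 CPM in the other bexarotene libraries and 17.0 to 41.1 CPM under vehicle. CPM here relate a count to the sum over all tested rows after TMM scaling.

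Per kilobase of transcript, the members spanned a wide range of mean levels over the 8 libraries. Psap, the precursor of the saposins that present sphingolipids to their hydrolases, led with 553 CPM per kilobase. It was followed by Lamp1 at 129, the iduronate sulfatase gene Ids at 96.1, the transporter-like membrane protein gene Laptm4a at 89.0 and the acid sphingomyelinase gene Smpd1 at 41.5 CPM per kilobase. The lowest were Sgsh, which encodes heparan N-sulfatase, at 1.41, the beta-mannosidase gene Manba at 2.24, Galns at 2.53 and Tfeb at 2.58 CPM per kilobase. These levels rest on 1 transcript length per gene and are not compared between groups.

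**Figure D1:**
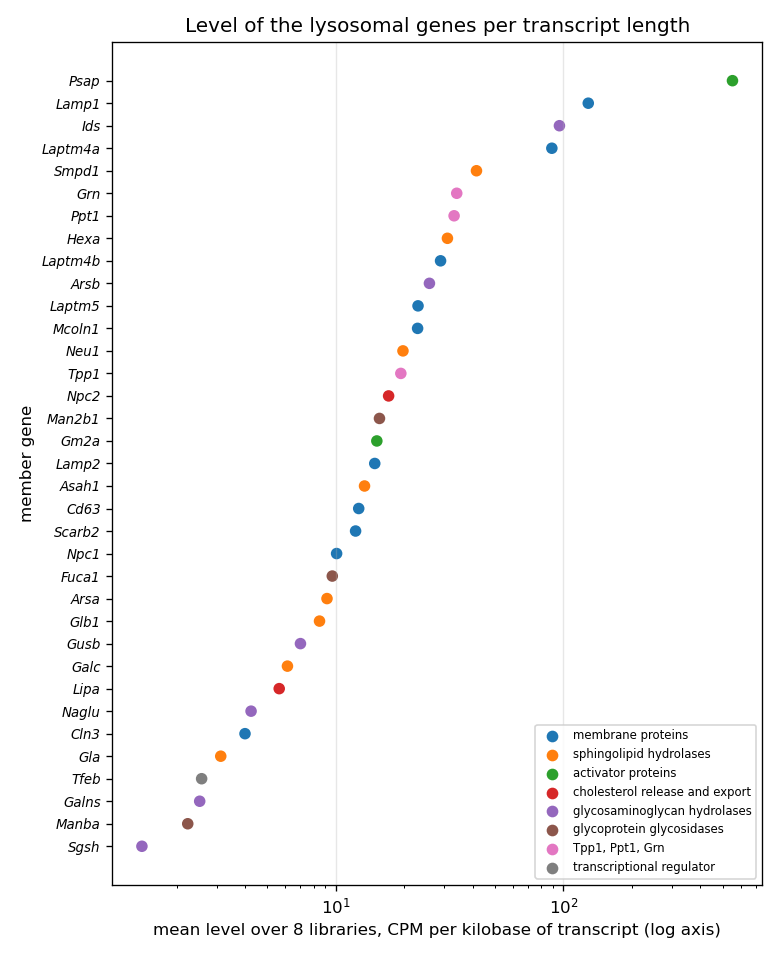
Mean level of each of the 35 members over the 8 libraries, in CPM per kilobase of transcript on a log axis, with 1 point per gene coloured by role. Psap lies highest at 553 and Sgsh lowest at 1.41 CPM per kilobase.

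Bexarotene against vehicle asks how the transcriptome of plaque-bearing cortex differs under treatment. By edgeR's quasi-likelihood test none of the 35 members reached an adjusted p below 0.05 (0 called, against 0.00622% of all genes tested, which is 1 gene). At an unadjusted p below 0.05 there were 6 members (17.1%), against 8.77% of all genes tested. Of these, Npc2, Hexa, Fuca1, Naglu and Grn averaged higher under bexarotene (5 members, 14.3%, against 4.88% of all genes) and Ids averaged lower (1 member, 2.86%, against 3.89%). The 2 groups did not overlap in 4 members (11.4%), against 5.77% of all genes, and all 4 (Npc2, Fuca1, Gm2a and Psap) were higher under bexarotene, against 3.61% of all genes in that direction. No member was without overlap and lower (0, against 2.16% of all genes). Leaving out bexarotene replicate 2 gave 8 members without overlap, and leaving out vehicle replicate 3 gave 9, when 1731 and 1600 genes in all did not overlap, against 927 with all libraries. With an offset for transcript length and GC content 6 members were again at an unadjusted p below 0.05, but Gm2a and Lamp2 stood in place of Grn and Ids. DESeq2 called 1 member, Npc2, against 0.781% of the genes to which it gave an adjusted p.

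Differences in level were small throughout the group. The log2 fold change (bexarotene minus vehicle) was positive in 24 members and negative in 11, with a median of 0.06. Over all genes tested the median was 0.0009, and 50.2% were positive. The share of members that were positive was 68.6%. It was 80% with upper quartile factors, which moved the median of all genes to 0.03, and 48.6% with the level of microglia markers as a covariate. Within replicates 1 and 3 the share was 57.1%, within replicates 2 and 4 it was 74.3%, and it ran from 60% to 71.4% when each library was left out. The log2 fold changes ran from -0.31 (Ids) to 0.46 (Fuca1), and in 17 members the value was smaller than its standard error. Taken within replicates 1 and 3, the members' median difference was 0.04, against 0.12 in replicates 2 and 4.

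**Figure D2:**
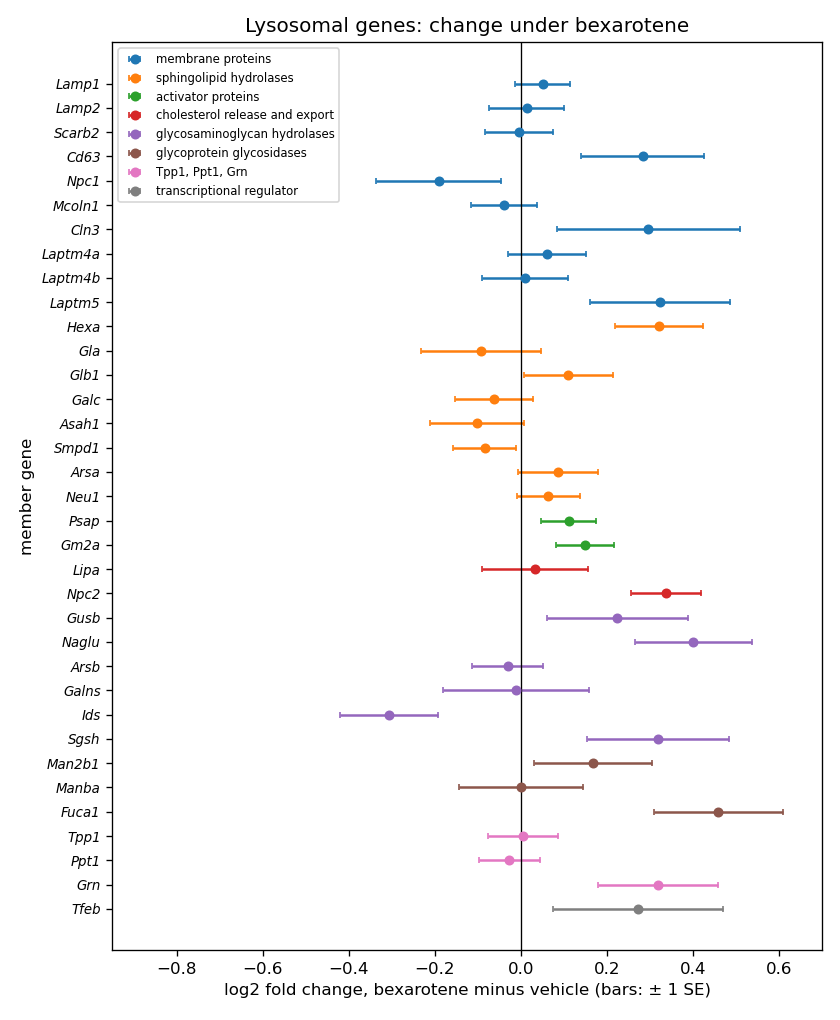
Log2 fold change of each of the 35 members, bexarotene minus vehicle, with bars of 1 standard error and colours for the role of the gene. Fuca1 lies farthest to the right at 0.46 and Ids farthest to the left at -0.31, and 17 points lie within 1 standard error of 0.

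Among the membrane proteins, 7 of 10 had a positive log2 fold change and 0 had an unadjusted p below 0.05. Lamp1, a heavily glycosylated protein of the lysosomal membrane and the highest of this role per kilobase, was at 300, 290, 285 and 291 CPM in bexarotene replicates 1 to 4. Vehicle replicates 1 to 4 had 283, 287, 274 and 283 CPM. All 8 values lay close together, and bexarotene replicate 3 lay below vehicle replicate 2. Fitted over all genes, the log2 fold change was 0.05 ± 0.06 (SE), at an edgeR adjusted p of 0.884, and the p from exact permutation, two-sided, was 0.0571. The smallest p this exact test can give with 4 against 4 is 0.0286.

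Lamp2, a membrane glycoprotein with isoforms that serve chaperone-mediated autophagy and autophagosome fusion, was at 52.6, 57.7, 51.9 and 52.7 CPM in bexarotene replicates 1 to 4. In vehicle replicates 1 to 4 it was at 53.9, 47.0, 59.9 and 52.2 CPM. The groups overlapped fully, with the lowest and the highest value both in vehicle libraries, and the log2 fold change was 0.01 ± 0.09 (adjusted p of 0.987). With the offset for transcript length and GC content it was 0.19 (edgeR unadjusted p = 0.0158, adjusted p = 0.827), and 0.19 with the replicate block as well. The table holds a second row for Lamp2, a shorter transcript. Its values were 35.5, 41.7, 35.7 and 40.1 CPM under bexarotene and 33.2, 30.2, 39.5 and 32.6 CPM under vehicle, in replicate order. Its log2 fold change was 0.17 ± 0.10 (adjusted p of 0.689). Rows of a gene need not be separate shares of its reads. For Lipa both rows held the same counts in every library, with 1120 each in bexarotene replicate 1. How a read matching both Lamp2 transcripts was counted is not known, and the difference between the Lamp2 rows was not tested.

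Npc1, the membrane protein that exports cholesterol from the lysosome, was at 42.8, 53.0, 44.0 and 57.1 CPM in bexarotene replicates 1 to 4. Vehicle replicates 1 to 4 had 48.7, 55.7, 48.4 and 72.0 CPM. In both groups replicates 2 and 4 were above replicates 1 and 3, and the groups overlapped. As a log2 fold change, this was -0.19 ± 0.15 (adjusted p of 0.769), and -0.04 without vehicle replicate 4. Laptm5, a membrane protein of immune cells, had the smallest unadjusted p of the membrane group (0.0757 in edgeR's quasi-likelihood test).

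Laptm5 was at 62.7, 57.7, 54.6 and 90.8 CPM in bexarotene replicates 1 to 4 and at 50.9, 53.1, 62.3 and 46.0 CPM in vehicle replicates 1 to 4. Bexarotene replicate 4 stood above all other libraries, and vehicle replicate 3 exceeded bexarotene replicates 2 and 3. On the log2 scale the fold change was 0.32 ± 0.16 (adjusted p of 0.629), and 0.14 without bexarotene replicate 4. Its relatives Laptm4a and Laptm4b, which are expressed outside immune cells too, had 0.06 ± 0.09 and 0.01 ± 0.10. Laptm4a had differences of 0.22 (replicates 1 and 3) and -0.11 (replicates 2 and 4).

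The remaining membrane proteins had log2 fold changes from -0.04 to 0.30. Cln3, mutated in juvenile Batten disease, averaged 10.95 ± 0.910 CPM in treated and 8.92 ± 2.77 CPM in vehicle libraries (SD, n = 4). Its lowest library was vehicle replicate 4 at 5.26 CPM, and its log2 fold change of 0.30 ± 0.21 was 0.12 without that library. The tetraspanin gene Cd63 averaged 14.7 ± 2.64 against 12.1 ± 1.29 CPM (SD, n = 4), with a log2 fold change of 0.28 ± 0.14 (edgeR unadjusted p = 0.0770). The value was 0.27 with the replicate block (unadjusted p = 0.0407), 0.18 without bexarotene replicate 1 and 0.10 with the offset for transcript length and GC content, where Cd63 has the shortest transcript of the members (1063 nt). The annotation lists a processed pseudogene of Cd63, with which reads can be shared, so its counts are uncertain. The lysosomal calcium channel gene Mcoln1 (-0.04 ± 0.08) and Scarb2, the receptor that carries glucocerebrosidase to the lysosome (-0.0045 ± 0.08), averaged 46.6 against 47.9 CPM and 57.4 against 57.5 CPM.

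Of the 8 hydrolases of sphingolipids and gangliosides, 4 were higher on average and 4 lower, and the median log2 fold change was 0.0009. Hexa, the alpha subunit of beta-hexosaminidase that cleaves GM2 ganglioside, was at 73.5, 59.2, 68.1 and 73.7 CPM in bexarotene replicates 1 to 4. In vehicle replicates 1 to 4 it was at 54.6, 50.8, 63.6 and 50.8 CPM. The groups overlapped through 1 pair, vehicle replicate 3 above bexarotene replicate 2. Its log2 fold change was 0.32 ± 0.10, a 1.25-fold difference (edgeR unadjusted p = 0.0106, adjusted p = 0.473).

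The other 7 enzymes of this role had log2 fold changes from -0.10 to 0.11. Asah1 (acid ceramidase) and Smpd1 (acid sphingomyelinase) averaged 35.8 against 38.4 CPM and 97.2 against 103 CPM. Gla (alpha-galactosidase A) and Galc (galactosylceramidase) averaged 9.60 against 10.2 CPM and 23.0 against 24.02 CPM. Glb1 (beta-galactosidase), Arsa (arylsulfatase A) and Neu1 (sialidase) had log2 fold changes of 0.11 ± 0.10, 0.09 ± 0.09 and 0.06 ± 0.07. None of these 7 had an unadjusted p below 0.05.

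Both activator proteins, which lift lipids out of membranes for the hydrolases, were higher in every bexarotene library than in any vehicle library, by small amounts. Gm2a, the activator that presents GM2 ganglioside to beta-hexosaminidase, was at 69.4, 65.0, 61.8 and 66.8 CPM in bexarotene replicates 1 to 4 and at 59.2, 59.6, 60.3 and 58.3 CPM in vehicle replicates 1 to 4. The vehicle libraries lay within 2 CPM of each other. Fitted over all genes, the log2 fold change was 0.15 ± 0.07, at an edgeR adjusted p of 0.589.

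Psap was at 1502, 1531, 1555 and 1514 CPM in bexarotene replicates 1 to 4. Vehicle replicates 1 to 4 had 1409, 1402, 1467 and 1371 CPM. The groups did not overlap, and the gap between bexarotene replicate 1 and vehicle replicate 3 was narrow. As a log2 fold change, this was 0.11 ± 0.06, a 1.08-fold difference (edgeR adjusted p = 0.685). It was 0.05 with an offset for transcript length and GC content. For both Gm2a and Psap the two-sided exact permutation p was 0.0286, the smallest possible. Any gene whose groups do not overlap has this p, so it adds nothing to the absence of overlap. All 6 rows of Psap gave a log2 fold change of 0.11, but they held nearly the same counts in each library and are not independent.

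Npc2 and Lipa act on cholesterol in the lumen, and both averaged higher under bexarotene. Npc2, which binds the cholesterol that Lipa releases from its esters and hands it to Npc1, was at 66.5, 61.3, 59.0 and 64.8 CPM in bexarotene replicates 1 to 4. In vehicle replicates 1 to 4 it was at 45.2, 52.4, 53.7 and 47.8 CPM. All bexarotene libraries were above all vehicle libraries. Npc2 averaged 62.9 ± 3.40 against 49.8 ± 3.94 CPM (SD, n = 4), a 1.26-fold difference.

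The log2 fold change of Npc2 was 0.34 ± 0.08. It had the smallest p of the members (0.00197 unadjusted, rank 92 among the 16069 genes) and an edgeR adjusted p of 0.375. In DESeq2 the adjusted p was 0.0425. Replicates 1 and 3 differed by 0.35, replicates 2 and 4 by 0.33, and it ranged from 0.29 to 0.38 when each library was left out in turn. It was 0.18 with the level of microglia markers as a covariate. The summed choroid plexus markers, of which 6 of 6 averaged higher, did not overlap between the groups either, and their part in the difference of Npc2 was not tested.

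Lipa, the acid lipase that splits cholesteryl esters, was at 17.9, 16.6, 17.4 and 15.9 CPM in bexarotene replicates 1 to 4 and at 20.9, 15.2, 15.2 and 15.0 CPM in vehicle replicates 1 to 4. Vehicle replicate 1 was the highest of all 8 libraries, and the other 3 vehicle libraries were below every bexarotene library. On the log2 scale the fold change was 0.03 ± 0.12 (adjusted p of 0.971), and 0.16 without vehicle replicate 1.

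**Figure D3:**
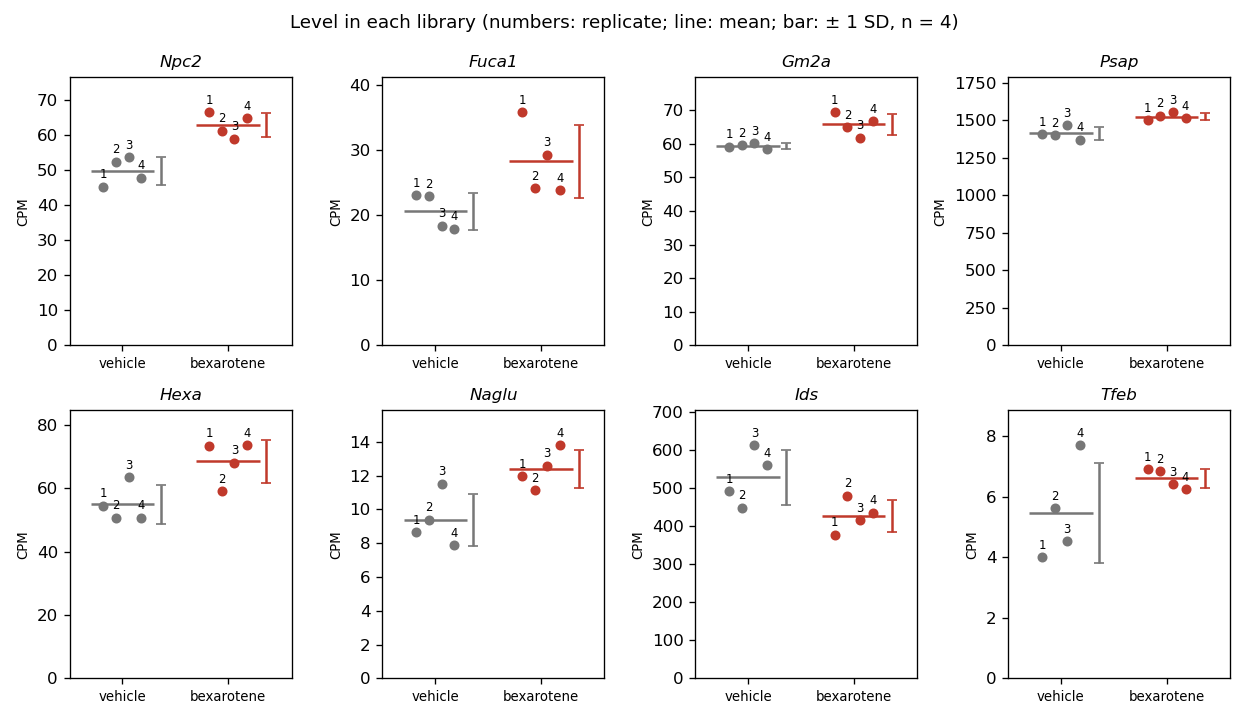
CPM in each library for Npc2, Fuca1, Gm2a, Psap, Hexa, Naglu, Ids and Tfeb, with 1 point per library numbered by replicate, a line at the group mean and a bar of 1 SD (n = 4). In Npc2, Fuca1, Gm2a and Psap all 4 bexarotene points lie above all 4 vehicle points, while in Hexa, Naglu, Ids and Tfeb the groups overlap.

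The enzymes that break down glycosaminoglycans divided evenly, 3 higher and 3 lower on average. Naglu, which removes N-acetylglucosamine from heparan sulfate, was at 11.97, 11.1, 12.6 and 13.8 CPM in bexarotene replicates 1 to 4. Vehicle replicates 1 to 4 had 8.68, 9.41, 11.5 and 7.89 CPM. Vehicle replicate 3 was above bexarotene replicate 2, and the other libraries were separated. Its log2 fold change was 0.40 ± 0.14, a 1.32-fold difference (edgeR unadjusted p = 0.0148, adjusted p = 0.483).

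Ids, which removes sulfate from iduronic acid in heparan and dermatan sulfate, was the 1 member with an unadjusted p below 0.05 and a lower average under bexarotene. Its levels were 378, 480, 416 and 435 CPM in bexarotene replicates 1 to 4. In vehicle replicates 1 to 4 it was at 492, 448, 612 and 560 CPM. Bexarotene replicate 2 was above vehicle replicate 2, and the remaining bexarotene libraries were below every vehicle library. Fitted over all genes, the log2 fold change was -0.31 ± 0.11 (edgeR unadjusted p = 0.0217, adjusted p = 0.516).

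Several measures can be set beside the values of Ids. Spearman's rho between log2 fold change and transcript length was -0.466 over 11560 genes, which share the same libraries, and Ids has one of the longest transcripts among the members, at 4972 nt, where the median is 2657 nt. Levels relative to the mean of the 8 libraries correlated with length at -0.416 and -0.43 in bexarotene replicates 1 and 3, the libraries with the lowest Ids. The correlation was 0.027 in both bexarotene replicates 2 and 4, and 0.312, 0.0713, 0.101 and 0.279 in vehicle replicates 1 to 4. Ids was highest in vehicle replicate 3, where the correlation was not the highest. With the offset for length and GC content the log2 fold change of Ids was -0.16 (edgeR unadjusted p = 0.122). Its difference was -0.47 in replicates 1 and 3 but -0.13 in replicates 2 and 4. The part of transcript length in the lower Ids was not tested.

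Ids, Lamp2 and Gla lie on the X chromosome. For Lamp2 and Gla, both vehicle libraries with high Xist were above both with Y-linked transcripts. For Gla, vehicle replicates 1 and 3 had 10.5 and 12.2 CPM and replicates 2 and 4 had 9.89 and 8.43 CPM. For Ids they had 492 and 612 CPM against 448 and 560 CPM, so the order did not hold. The part of the unequal Xist levels in the group difference was not tested.

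The other glycosaminoglycan enzymes were less separated. Sgsh averaged 6.81 ± 0.475 against 5.47 ± 1.12 CPM (SD, n = 4), for a log2 difference of 0.32 ± 0.17, and differed by 0.07 in replicates 1 and 3 but 0.60 in replicates 2 and 4. Gusb (beta-glucuronidase) averaged 20.3 ± 4.48 against 17.3 ± 2.59 CPM, a log2 fold change of 0.22 ± 0.16, and 0.07 without bexarotene replicate 4. Arsb, which removes sulfate from dermatan sulfate, and Galns, which acts on keratan sulfate, had log2 fold changes of -0.03 ± 0.08 and -0.01 ± 0.17.

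Among the glycosidases of glycoproteins, Fuca1, which removes fucose, had the highest log2 fold change of the 35 members. Its levels were 35.8, 24.1, 29.3 and 23.8 CPM in bexarotene replicates 1 to 4 and at 23.0, 22.9, 18.4 and 17.9 CPM in vehicle replicates 1 to 4. The groups did not overlap, although bexarotene replicates 2 and 4 lay just above vehicle replicates 1 and 2. As a log2 fold change, this was 0.46 ± 0.15, a 1.37-fold difference (edgeR unadjusted p = 0.0118, adjusted p = 0.477).

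For Fuca1 the difference was 0.65 among replicates 1 and 3 but 0.24 among replicates 2 and 4. Bexarotene replicates 1 and 3, where it was highest, were also the libraries with the highest striatal markers (1235 and 904 CPM), and the part of these in the result was not tested. Man2b1 (alpha-mannosidase) averaged 63.0 ± 12.3 against 56.0 ± 6.71 CPM (SD, n = 4), for a log2 difference of 0.17 ± 0.14, and 0.03 without bexarotene replicate 4. Manba averaged 8.23 CPM in both groups.

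Grn, Tpp1 and Ppt1 are lumenal proteins whose loss causes neuronal ceroid lipofuscinosis. Grn, the precursor of the granulins, was at 83.8, 83.0, 75.4 and 111 CPM in bexarotene replicates 1 to 4. Vehicle replicates 1 to 4 had 70.2, 63.8, 86.2 and 63.1 CPM. Bexarotene replicate 4 was highest, and vehicle replicate 3 exceeded the other 3 bexarotene libraries. On the log2 scale the fold change was 0.32 ± 0.14 (edgeR unadjusted p = 0.0456, adjusted p = 0.573), and 0.19 without bexarotene replicate 4.

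For Grn the difference was 0.03 among replicates 1 and 3 but 0.60 among replicates 2 and 4. The protease gene Tpp1 averaged 68.8 ± 1.46 against 68.6 ± 6.496 CPM, and the thioesterase gene Ppt1 78.1 ± 2.63 against 79.6 ± 4.73 CPM (SD, n = 4). Their log2 fold changes, 0.00 ± 0.08 and -0.03 ± 0.07, were smaller than their standard errors.

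Tfeb, the regulator of lysosomal genes, was at 6.91, 6.85, 6.41 and 6.26 CPM in bexarotene replicates 1 to 4. In vehicle replicates 1 to 4 it was at 3.997, 5.62, 4.54 and 7.71 CPM. The bexarotene libraries lay close together, whereas the vehicle libraries held both the lowest and the highest value of the 8. Its log2 fold change was 0.27 ± 0.20 (adjusted p of 0.758). It was 0.64 within replicates 1 and 3, -0.01 within replicates 2 and 4, 0.15 without vehicle replicate 1 and 0.49 without vehicle replicate 4. All 3 rows of Tfeb gave values from 0.27 to 0.28, but they held nearly the same counts in each library and are not independent.

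The 8 members with CACGTG in the promoter window had log2 fold changes from -0.09 (Gla) to 0.40 (Naglu), with a median of 0.10. The 23 with a promoter entry and no such letters ran from -0.31 to 0.46, with a median of 0.06. Lamp1, with 4 E-boxes, had 0.05 and Mcoln1, with 2, had -0.04. Of the 8 with an E-box, 1 had an unadjusted p below 0.05, and of the 23 without there were 5. Over all genes tested the share at that p was 8.77%.

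Single libraries stood out across many members. Vehicle replicate 4 was the lowest of the 8 libraries for 17 of the 35 members, and bexarotene replicate 4 was the highest for 10. Within the vehicle group, replicate 3 was the highest for 18 members and replicate 4 the lowest for 19. The median deviation of the members from their means was 0.01 log2 CPM in vehicle replicate 3, above the -0.01 in bexarotene replicate 3. The other vehicle libraries had -0.05 to -0.10, and the other bexarotene libraries 0.03 to 0.07.

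**Figure D4:**
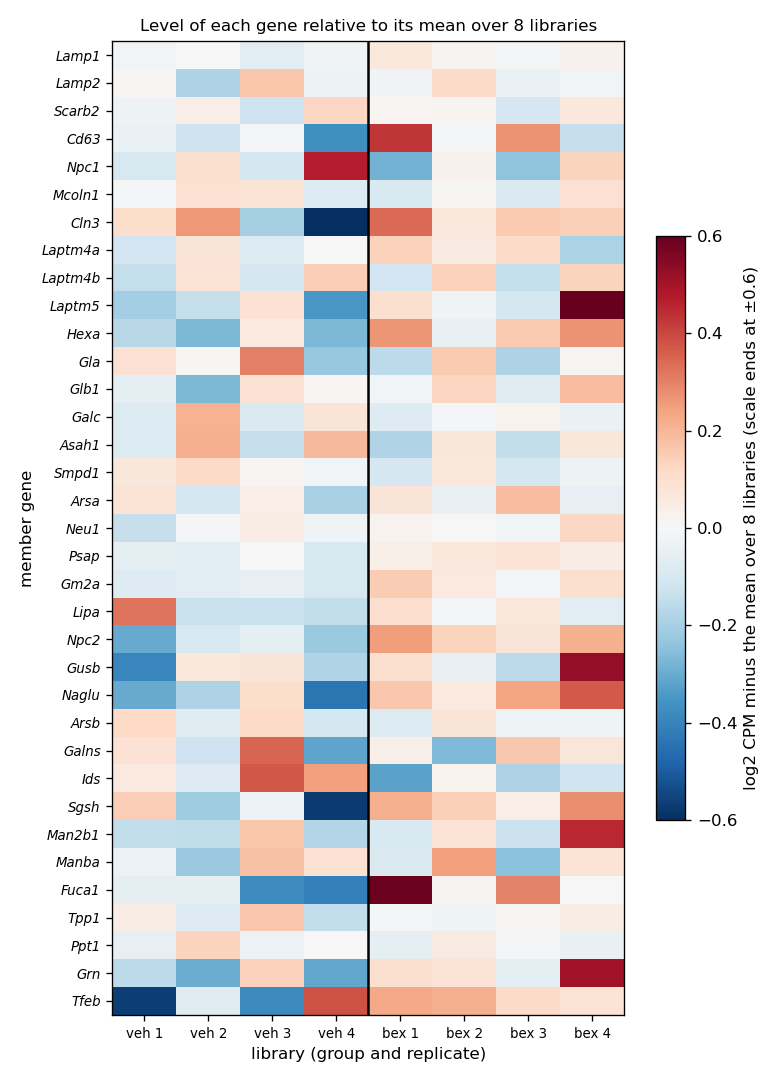
Level of each member in each library as log2 CPM minus its mean over the 8 libraries, with vehicle libraries on the left and bexarotene libraries on the right of the line, red above and blue below the mean. Vehicle replicate 4 has the lowest value for 17 of the 35 genes and bexarotene replicate 4 the highest for 10.

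Microglia express many lysosomal genes at high level, and the summed level of 14 microglia markers was 748, 613, 642 and 832 CPM in bexarotene replicates 1 to 4. It was 475, 493, 575 and 515 CPM in vehicle replicates 1 to 4. The groups did not overlap, all 14 markers had a positive log2 fold change (median 0.40), and 0 passed an adjusted p of 0.05. At an unadjusted p below 0.05 in edgeR's test 11 of the 14 were higher, against 4.88% of all genes. Taken singly, 6 of the 14 were higher without overlap, against 3.61% of all genes. In bulk tissue, more cells of a type and more RNA per cell cannot be told apart. Grn, Laptm5, Man2b1 and Gusb, chosen after their values were seen, had the same highest library in each group as the summed markers. These were bexarotene replicate 4 and vehicle replicate 3. Hexa, Naglu, Neu1, Glb1 and Tpp1 also had these libraries highest, so the order was not particular to Grn, Laptm5, Man2b1 and Gusb. The neuron marker Slc17a7 had it too. The summed neuron markers, however, were highest in vehicle replicate 2 within that group (6092 CPM, against 5978 CPM in replicate 3). Whether the order is particular to microglia markers was not tested.

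With the level of the microglia markers as a covariate, the log2 fold change was -0.13 for Grn, -0.25 for Laptm5, -0.24 for Man2b1 and -0.35 for Gusb. It was 0.05 for Hexa, 0.13 for Naglu, 0.18 for Npc2, 0.08 for Gm2a, 0.11 for Psap and 0.67 for Fuca1. The median of the 35 members was then -0.01, with 17 positive, and 1 member was at an unadjusted p below 0.05. Since the markers themselves separated the groups, this covariate shares its variation with the treatment, and in the same fit 250 genes of 16069 were at that p, against 1409 without it. The part of microglial RNA in the differences cannot be told apart from that of treatment.

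**Figure D5:**
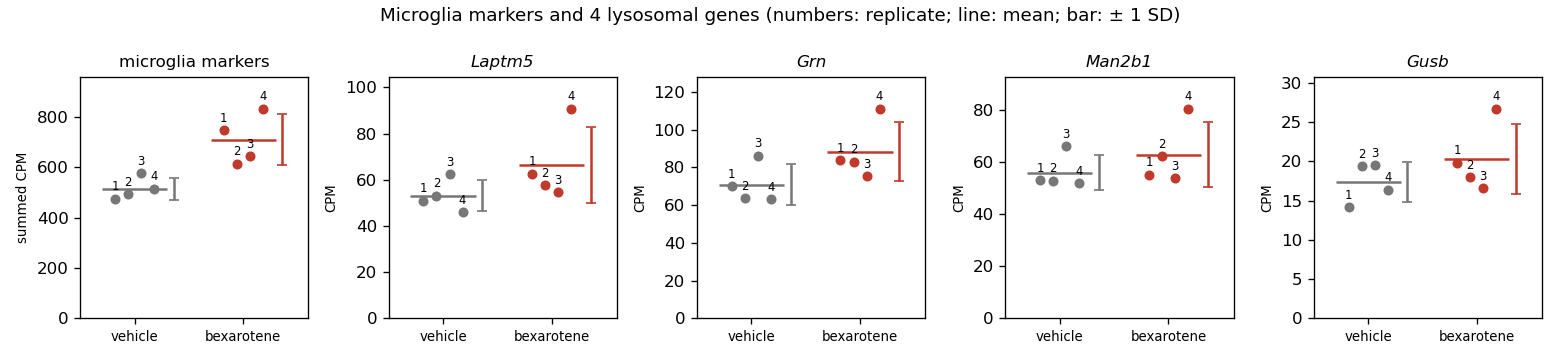
Summed CPM of 14 microglia markers and CPM of Laptm5, Grn, Man2b1 and Gusb in each library, numbered by replicate, with a line at the mean and a bar of 1 SD (n = 4). Bexarotene replicate 4 is the highest point of its group and vehicle replicate 3 the highest of its group in all 5 panels, but in the 4 lysosomal genes, unlike the markers, the groups overlap. Members not shown, such as Hexa and Tpp1, have the same libraries highest.

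In the rest of the lysosomal pathway, taken from lists that do not share genes with the members, 0 genes passed an adjusted p of 0.05 in either direction. Of 19 other lysosomal enzymes, 13 had a positive log2 fold change (median 0.09). Ctsa, the protective protein that stabilises Neu1 and Glb1, had 0.20 ± 0.08, and Lgmn, the asparaginyl endopeptidase, 0.23 ± 0.09 (edgeR adjusted p = 0.527 and 0.556). Ctsa was the 1 gene of these 19 whose groups did not overlap, against 5.77% of all genes tested.

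Of 18 subunits and accessory proteins of the proton pump that acidifies lysosomes, 8 were positive and 10 negative, with a median of -0.0033. The membrane ring subunit Atp6v0c had 0.34 ± 0.12 and Atp6v1f 0.21 ± 0.10. Of 16 lysosomal transporters and channels, 4 were positive and 12 negative (median -0.06), with the endolysosomal cation channel gene Tpcn1 at 0.16 ± 0.08. Of 9 genes of mannose-6-phosphate tagging and sorting, 6 were positive (median 0.03), with Gnptg, a subunit of the tagging enzyme, at 0.13 ± 0.07 and the receptor gene M6pr at 0.10 ± 0.07.

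Of 15 genes of the Tfeb family and of nutrient sensing at the lysosome, 7 were positive and 8 negative (median -0.01). The smallest p belonged to 2 subunits of the Ragulator scaffold, Lamtor4 (listed in the table as 0910001L09Rik) at 0.41 ± 0.13 and Lamtor2 at 0.39 ± 0.13. In this list of 15, 2 genes were higher without overlap, Lamtor4 and Lamtor1 (listed as 2400001E08Rik, 0.28 ± 0.11), against 3.61% of all genes. Another 2 were lower without overlap, Fnip1 at -0.33 ± 0.12 and Mitf at -0.30 ± 0.14, against 2.16% of all genes. Lamtor1, Fnip1 and Mitf were named after their values were seen. Of 16 autophagy genes, 10 were positive (median 0.04), with Gabarapl1, a protein of the autophagosome membrane, at 0.22 ± 0.07 and the initiating kinase gene Ulk1 at -0.21 ± 0.11. Gabarapl1 here, and M6pr among the 9 tagging and sorting genes, were the only genes of their lists without overlap, both higher.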

How the data were processed

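mRNA libraries were made with a stranded TruSeq kit after Qiagen RNeasy extraction, per the labels' protocols. The authors deposited a table of unnormalized read counts with a row for each RefSeq transcript, judged by whole-number values whose column sums differ. The submitters' processing notes name the genome build mm9 and edgeR. The aligner, the counting program and its strand setting are not known here (not given in the sources), so reads of genes that overlap on opposite strands, as annotated for 14 of the members, cannot be told apart. In the table, 7 members had more than 1 row. There were 0 columns of values left out.

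Groups and replicate numbers came from the sample titles. Groups were compared in R 4.3.3 by the quasi-likelihood F test of edgeR 4.0.16 on all 8 libraries, with TMM scaling, filterByExpr at its defaults, robust estimation and the group as the only term. All 21285 rows kept by the filter entered the Benjamini-Hochberg adjustment. Positive log2 fold changes mean higher under bexarotene, and standard errors were taken from the F statistic. Exact two-sided permutation tests used log2 CPM with a prior count of 2. Library totals ranged from 42413825 to 76542067. Transcript lengths and GC content came from GENCODE M21 by RefSeq accession (27791 rows) or symbol (589 rows).

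Members and gene lists were chosen with earlier results of these data known, so lists are described by counts and medians and given no test. The genes given library by library were Lamp1, Lamp2, Psap, Npc1 and Tfeb, the members without overlap and the member of each role with the smallest p; of each pathway list, the 2 genes with the smallest p were named, apart from 1 that is not reported here. Ids, Lipa, Gusb, Man2b1, Cln3 and Cd63 were given more room after their values were seen. After subtraction of group means, libraries that share a number had correlations of 0.427, 0.278, 0.144 and 0.163 (numbers 1 to 4), so a blocked fit on that number was run; the numbers come from the titles alone. Alternatives were DESeq2 1.42.0, other scaling factors, no filter, summed rows, the block, a term for replicates 1 and 3, a microglia covariate, a length and GC offset, within-replicate differences and leaving out each library. The fits were tested on simulated data whose planted changes were larger than any seen in the members. That does not show how well small changes are found.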

Additional observations from a re-analysis of the deposited data

Results flagged for a closer look

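In 86 groups of 4 libraries (the 35 members and 8 lists of cell type markers, each in 2 groups), 6 held 1 library that stood far from the other 3, where chance gives about 1 group in 20. Lipa was at 20.9 CPM in vehicle replicate 1, against 15.0 to 15.2 CPM in the other vehicle libraries. Man2b1 was at 66.1 CPM in vehicle replicate 3, against 52.0 to 53.1 CPM in the others of that group. Lamp2 was at 57.7 CPM in bexarotene replicate 2, against 51.9 to 52.7 CPM in the others. Of the markers, those of choroid plexus summed to 1452 CPM in bexarotene replicate 2, where the other bexarotene libraries had at most 226 CPM, and those of liver to 112 CPM in the same library, where the other bexarotene libraries had at most 49.6 CPM. Liver markers were higher still in vehicle replicate 4, at 117 CPM, and at 80.1 CPM in vehicle replicate 2. Within the vehicle group, neuron markers were lowest in replicate 1, at 5402 CPM, against 5978 CPM or more in the other vehicle libraries. They were lower still in bexarotene replicates 1 and 3, at 4613 and 5086 CPM, while bexarotene replicates 2 and 4 had 6115 and 6193 CPM.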

How the results depend on the processing

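Under edgeR's quasi-likelihood test 0 members passed an adjusted p of 0.05 in every alternative, and DESeq2 called 1, Npc2. The replicate block left 0 members called and 6 at an unadjusted p below 0.05, with a median log2 fold change of 0.06, so it changed no call. The count at an unadjusted p below 0.05 was 1 and the median -0.01 with the microglia covariate, and the median was 0.12 within replicates 2 and 4. The within-replicate differences gave no counts of calls, and fits with a further term gave no count of overlap. Leaving out each library gave 0 called throughout, 4 to 7 members at an unadjusted p below 0.05, 4 to 9 members without overlap (fewer libraries overlap less) and medians from 0.05 to 0.09. Over 20 alternatives, 15 members kept the sign of their log2 fold change and 20 did not. Npc2, Fuca1, Gm2a, Psap, Hexa, Naglu and Ids kept theirs, and Grn did so except with the microglia covariate. The cause of the following changes of sign was not tested. With the microglia covariate the values were -0.026 for Lamp2, -0.063 for Laptm4b, -0.25 for Laptm5, -0.073 for Glb1, 0.012 for Galc, -0.086 for Neu1, -0.35 for Gusb, 0.027 for Arsb, -0.24 for Man2b1, -0.13 for Manba, -0.070 for Tpp1, 0.055 for Ppt1 and -0.13 for Grn. Within replicates 1 and 3 they were -0.12 for Lamp2, 0.035 for Scarb2, -0.0063 for Laptm4b, -0.059 for Glb1, 0.056 for Galc, -0.012 for Lipa, -0.12 for Man2b1, -0.24 for Manba, -0.10 for Tpp1 and 0.012 for Ppt1. Within replicates 2 and 4 they were 0.044 for Mcoln1, -0.11 for Laptm4a, 0.19 for Gla, 0.12 for Arsb, 0.12 for Galns and -0.0067 for Tfeb. With upper quartile factors they were 0.026 for Scarb2, 0.00082 for Arsb, 0.021 for Galns and 0.0040 for Ppt1. With the length and GC offset they were 0.064 for Scarb2, -0.038 for Laptm4b and -0.013 for Neu1. With that offset and the replicate block they were 0.067 for Scarb2, -0.040 for Laptm4b and -0.013 for Neu1. In DESeq2 they were -0.0050 for Manba and -0.0020 for Tpp1. With RLE factors they were -0.0052 for Manba and -0.0021 for Tpp1. With the replicate block they were 0.00021 for Galns and -0.0027 for Manba. With the term for replicates 1 and 3 they were 0.0014 for Galns and -0.0062 for Manba. Manba had -0.0022 with summed rows. Leaving out each library gave -0.037 to 0.076 for Lamp2, -0.044 to 0.044 for Scarb2, -0.036 to 0.067 for Laptm4b, -0.17 to 0.0012 for Gla, -0.099 to 0.0064 for Galc, -0.0054 to 0.16 for Lipa, -0.064 to 0.0046 for Arsb, -0.10 to 0.12 for Galns, -0.083 to 0.078 for Manba, -0.036 to 0.063 for Tpp1 and -0.047 to 0.021 for Ppt1.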
